A study of Mus musculus with 18 samples.

Results

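The motile cilium genes described here were chosen by name for their known role, with earlier results of these data known. They are 49 of the 27997 genes in the table of normalized expression. They are 5 transcription factors and coactivators of ciliogenesis, 10 genes of the outer dynein arm and its assembly, 5 of the inner dynein arm, 10 of the radial spokes, the nexin link and the axonemal ruler, 8 of the central apparatus and the dynein tether, 7 of the lumen of the doublet tubules and 4 others. All 49 were found in the table. The study grew adherent neural stem cells (NSCs) from cells of the spinal cord whose ancestors had expressed DNGR-1 (CLEC9A), a receptor of conventional dendritic cells, and compared them with NSCs of the hippocampus, before and after differentiation to astrocytes. RNA was sequenced from 18 libraries, 3 in each of 6 groups.

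The tdTomato line carried the genotype DNGR-1 +/- Tom+/- and the EYFP line DNGR-1 +/- EYFP+/-, which means that Cre from the Clec9a locus had switched on a reporter in the Rosa locus. Both lines were grown from spinal cord. The paper's methods describe a sort of tdTomato-positive cells from neurospheres before the adherent culture, and name no sort for the EYFP line. The hippocampal line is labelled DNGR-1+/+, and the design text describes its mice as carrying Glast-Cre, a floxed Huwe1 and a Rosa EYFP reporter. NSCs were recovered on day 4 in EGF, bFGF and laminin, and astrocytes on day 6 with 20 ng/ml BMP4. The 3 replicates of a group came from passages 10, 11 and 12 of 1 line, so the p-values here measure the spread between passages of that line. Tissue of origin, genotype and line cannot be told apart between the traced and the hippocampal lines. The traced lines share their tissue, and between them reporter, genotype and line cannot be told apart. An EYFP reporter is described for both the EYFP and the hippocampal line. The labels give a minimum of 25000000 reads for each library, but the reads behind each value cannot be recovered from log2 values. The labelled fates were checked with their markers. Gfap, the intermediate filament of astrocytes, was at 8.96 to 9.44 in the 9 NSC libraries and at 14.69 to 16.66 in the 9 astrocyte libraries, and Mki67, a gene of cycling cells, at 12.75 to 13.07 and 6.42 to 7.15.

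Motile cilia are built on doublet microtubules around a central pair. Outer and inner dynein arms slide the doublets past each other, while radial spokes, the nexin link and the central apparatus control the beat. Ependymal cells line the ventricles, where they carry tufts of such cilia and move cerebrospinal fluid. Those around the central canal carry only a few per cell. The multiciliated fate is switched on by Gmnc and Mcidas, and Foxj1 and the Rfx factors then drive the axoneme genes.

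All values are log2 normalized expression, not divided by gene length, so levels are compared between groups of libraries within 1 gene. Differences are log2 differences of group means ± SE from limma, and p-values were adjusted by the Benjamini-Hochberg method over the 15448 genes with a value of 3.32 or more (10 before the log) in 3 libraries or more. Of the 49 members, 34 passed that filter and 15 stayed below the level in every library. The number of members at that level in all 3 libraries was 18 in tdTomato, 23 in EYFP and 20 in hippocampal NSCs, and 27, 28 and 34 in the astrocytes of the same lines. Of the 34, 8 passed through astrocyte libraries alone, which were Dnah5, Zmynd10, Dnah6, Dnali1, Rsph4a, Ccdc153, Cfap52 and Fam183b. Without the hippocampal astrocytes Dnah6 and Rsph4a would not have passed, and Ccdc153 and Cfap52 passed through the hippocampal astrocytes alone, so a difference was built into their passing. Dnah9 had 1 NSC library at the level. For these 9 genes the standard errors and p-values below come from the fit of all 27997 genes without the filter, unless stated. For each comparison, the members called at an adjusted p under 0.05 are also counted over all 49 without the filter. Counts with a minimum difference and counts over all 3 lines at once are given with the filter alone. The deposited values pull weakly expressed genes towards their mean over the libraries, so changes of these genes are understated. In bulk RNA, fewer cells with a cilium and less cilium RNA in each cell cannot be told apart.

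Most motile cilium genes were higher in astrocytes than in NSCs in each line, and the hippocampal line had the larger rise. In the tdTomato line, 25 of the 34 members rose and 4 fell (limma adjusted p under 0.05), against 39.9% of all tested genes that rose and 38.5% that fell. In the EYFP line, 26 rose and 4 fell, against 38.2% and 37% of all genes. In the hippocampal line, 31 rose and 2 fell, against 39% and 37.3%. Since about 3 in 4 of all genes passed this test, a second call with a difference of at least 1 was added after the data were seen. With it, 20, 18 and 27 members rose in the tdTomato, EYFP and hippocampal lines, against 15.4%, 14% and 15.4% of all genes. These counts include members that passed the filter through astrocyte libraries alone, so a rise was built into their passing. Over all 49 members without the filter, 28 rose and 6 fell in the tdTomato line, 25 and 6 in the EYFP line and 37 and 2 in the hippocampal line. The background of that fit was 26%, 24.1% and 25.4% of genes that rose and 22.8%, 21.8% and 22.1% that fell. The median change over the 49 was 0.83, 0.63 and 1.53, where the median over all 27997 genes was 0.01 in each line.

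The mean log2 value over the 49 genes was 3.14 ± 0.04 (SD, n = 3) in tdTomato, 3.26 ± 0.05 in EYFP and 3.24 ± 0.03 in hippocampal NSCs. In astrocytes it was 3.87 ± 0.06, 3.95 ± 0.08 and 4.86 ± 0.11. The hippocampal astrocytes thus lay above both traced astrocyte groups by more than the spread between replicates, while the NSC groups lay between 3.14 and 3.26. All 3 astrocyte libraries were above all 3 NSC libraries for 34 members in the tdTomato line, 28 in the EYFP line and 39 in the hippocampal line, as were 43.5%, 29.3% and 40.8% of all genes. They were below for 6, 5 and 2 members, as were 24.2%, 23.3% and 23.8% of all genes.

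**Figure D1:**
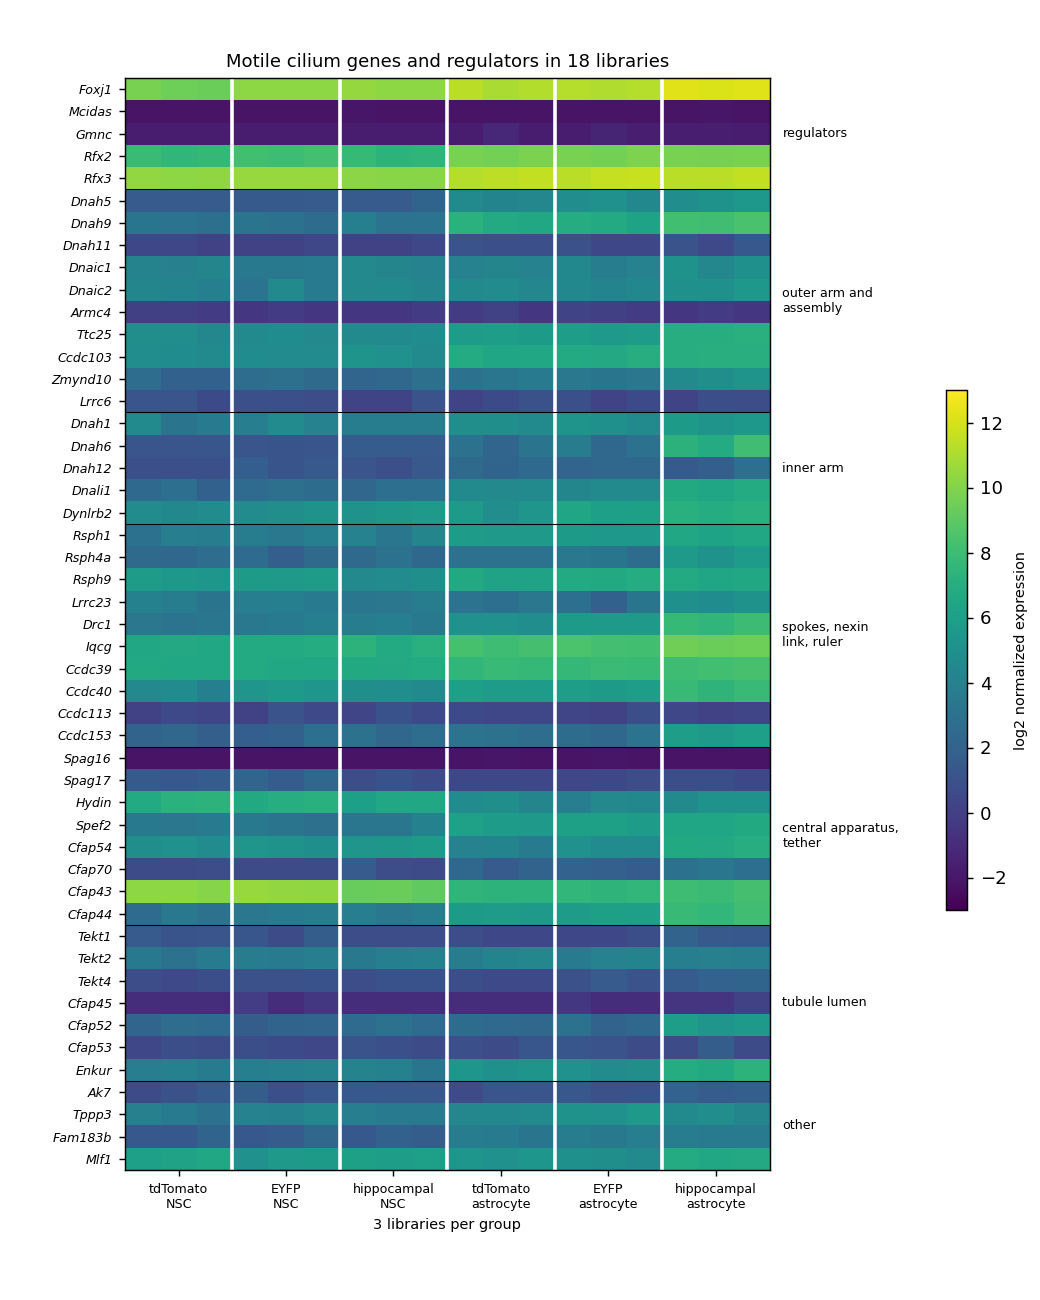
Log2 normalized expression (colour scale) of the 49 motile cilium genes (rows, grouped by role) in the 18 libraries (columns, 3 per group, white lines between groups). Most rows brighten from the NSC columns to the astrocyte columns and are brightest in the hippocampal astrocytes, while Hydin and Cfap43 darken and Mcidas, Gmnc and Spag16 stay dark throughout.

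Of the 34 members tested, 23 rose in all 3 lines, as did 28.1% of all tested genes, among them Foxj1, Rfx2, Rfx3, the outer arm heavy chains Dnah5 and Dnah9 and the inner arm heavy chains Dnah1 and Dnah6. Of the 23, Dnah5, Zmynd10, Dnah6, Dnali1 and Fam183b passed the filter through astrocyte libraries alone, so a rise was built into their passing. Without the filter the EYFP changes of Zmynd10 and Ccdc40 did not pass (limma adjusted p of 0.0809 and 0.0663). Hydin and Cfap43 fell in all 3 lines, as did 27.8% of all tested genes. Lrrc23, Cfap54, Cfap52 and Mlf1 passed as higher in the hippocampal line and not in the traced lines, as did 6.18% of all tested genes, and 3 of them, Lrrc23, Cfap54 and Mlf1, fell in at least 1 traced line. Cfap52 passed the filter through the hippocampal astrocytes alone, so this difference was built into its passing. Hydin, Cfap54 and the other members given below without each library were named after their values were seen.

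**Figure D2:**
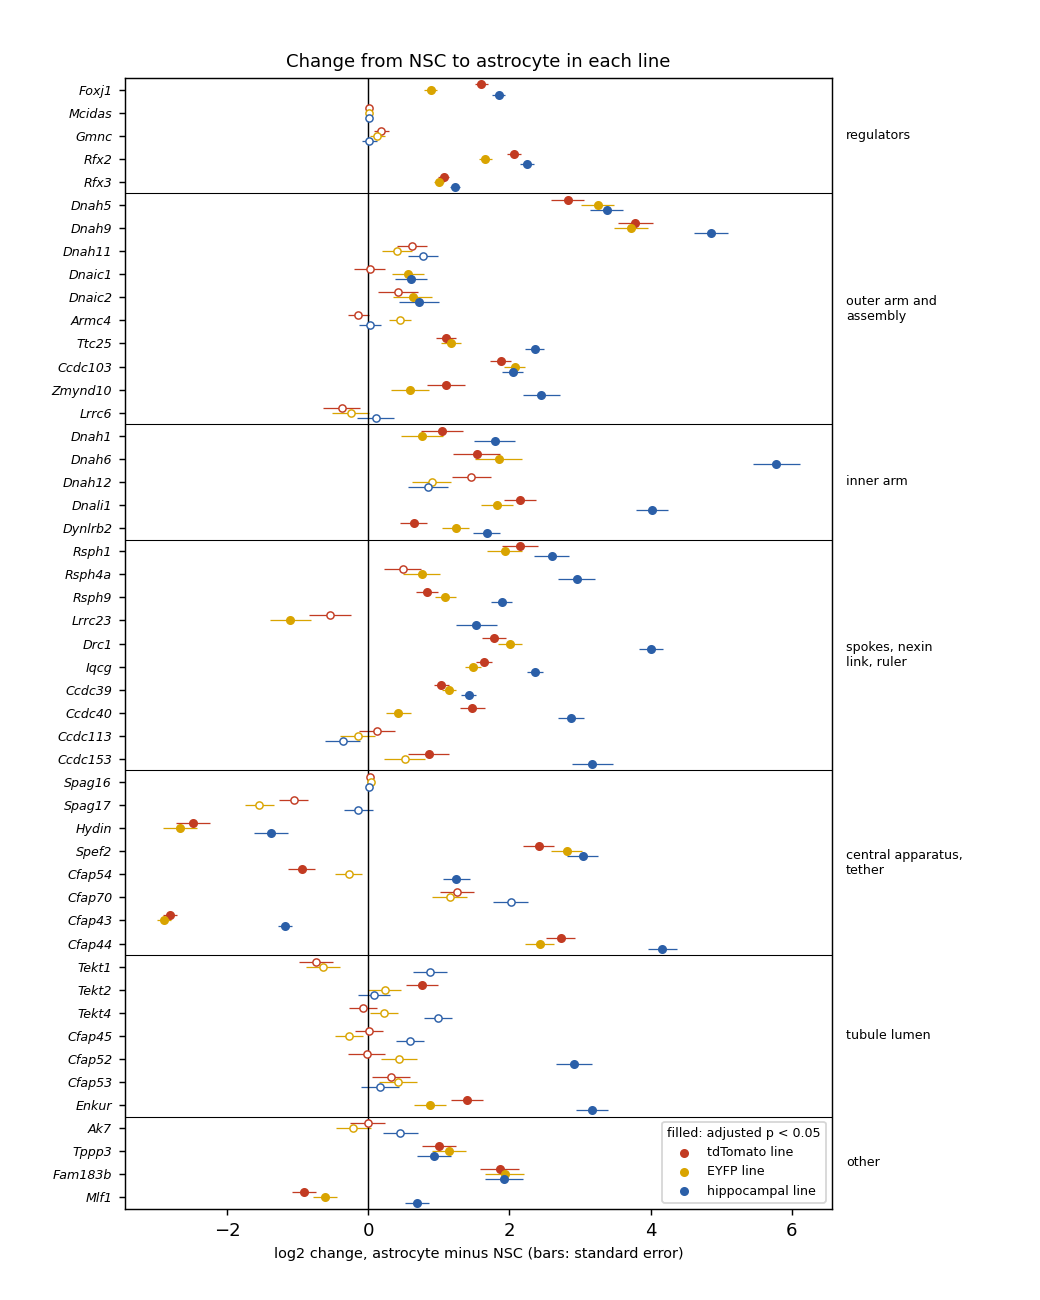
Log2 change from NSC to astrocyte (horizontal axis, bars are standard errors) of each of the 49 genes in the tdTomato (red), EYFP (yellow) and hippocampal (blue) lines. Filled points passed an adjusted p of 0.05 among the genes tested. The blue point lies to the right of the others for most genes of the dynein arms and radial spokes, and farthest for Dnah6 at 5.78.

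Foxj1 (ENSMUSG00000034227, chr11:116330704-116335399 on GRCm38) was expressed in all 18 libraries and rose in all 3 lines. It began at 9.76, 9.45 and 9.41 in tdTomato NSCs, 10.31, 10.26 and 10.25 in EYFP NSCs and 10.48, 10.30 and 10.26 in hippocampal NSCs. It stood afterwards at 11.32, 10.97 and 11.15 in tdTomato astrocytes, 11.22, 11.06 and 11.19 in EYFP astrocytes and 12.28, 12.12 and 12.20 in hippocampal astrocytes. No NSC library reached the level of any astrocyte library, and the hippocampal astrocytes lay above all others. The rise was 1.60 ± 0.09 (limma adjusted p = 1.73e-11) in the tdTomato line, 0.89 ± 0.09 (limma adjusted p = 6.97e-08) in the EYFP line and 1.85 ± 0.09 (limma adjusted p = 2.2e-12) in the hippocampal line. These are 3.04-fold, 1.85-fold and 3.61-fold on the linear scale.

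The inducers of the multiciliated fate upstream of Foxj1 stayed at the bottom of the scale. Mcidas, the geminin-family coactivator multicilin, lay between -2.15 and -2.05 in every library, next to the lowest value of the whole table at -2.15. Gmnc, which acts before Mcidas, lay between -1.71 and -1.68 in 16 of the 18 libraries. The other 2, the second replicates of the tdTomato and EYFP astrocytes, had -1.18 and -1.35. Neither gene passed the filter, and without it no change passed the test (limma adjusted p of 0.186 or more).

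Rfx2 and Rfx3, the winged-helix factors that bind the X-box of cilium promoters, rose to nearly the same level in the 3 astrocyte groups. Rfx2 was at 7.88, 7.55 and 7.64 in tdTomato NSCs, 8.14, 8.06 and 8.20 in EYFP NSCs and 7.74, 7.37 and 7.44 in hippocampal NSCs. It was at 9.78, 9.66 and 9.81 in tdTomato astrocytes, 9.80, 9.66 and 9.92 in EYFP astrocytes and 9.81, 9.71 and 9.78 in hippocampal astrocytes. Its rise was 2.06 ± 0.10 (limma adjusted p = 1.41e-12), 1.66 ± 0.10 (limma adjusted p = 3.27e-11) and 2.25 ± 0.10 (limma adjusted p = 3.72e-13) in the tdTomato, EYFP and hippocampal lines. Rfx3 was at 10.38, 10.26 and 10.31 in tdTomato NSCs, 10.56, 10.51 and 10.54 in EYFP NSCs and 10.19, 10.13 and 10.17 in hippocampal NSCs. After differentiation it read 11.24, 11.40 and 11.51 in tdTomato astrocytes, 11.37, 11.60 and 11.64 in EYFP astrocytes and 11.32, 11.32 and 11.53 in hippocampal astrocytes. All NSC libraries lay below all astrocyte libraries for both genes. The rise of Rfx3 was 1.07 ± 0.07, 1.00 ± 0.07 and 1.23 ± 0.07, with limma adjusted p of 2.41e-10, 6.5e-10 and 3.19e-11.

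Promoter windows, from 250 bases before to 50 after the gene start, were taken from RefSeq (GRCm38.p6) for the 40 members that had one. Foxj1, Armc4, Ttc25, Lrrc6, Rsph1, Rsph4a, Cfap54, Cfap53 and Tppp3 were not matched. The X-box was searched on both strands as GTNNCC, any 3 bases and GNAAC in a row. It was found in 7 of the 40 members, 17.5%, and in 2.49% of the 27025 genes with a window. The 7 were Cfap44, Cfap45, Enkur, Hydin, Spag16, Tekt4 and Zmynd10. A stricter form within it, GTTNCC, any 2 bases and GGNAAC, was found in none of the 40 and in 0.529% of all genes. The forkhead core TGTTTAC, the kind of site that FOXJ1 binds, was found in 3 of the 40, 7.5%, against 4.05% of all genes. These matches describe letters and are not bound sites. The 4 windows below are shown because their genes passed the filter and include both directions of change, 3 genes that rose and Hydin, which fell. They read 5′ to 3′ on the strand of the gene, with the X-box letters in capitals.

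Cfap44 (chr16:44394764-44394793, plus strand): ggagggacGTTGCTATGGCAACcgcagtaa
Enkur (chr2:21205356-21205385, minus strand): tagcaactGTTTCCTTAGCAACcacgtggt
Zmynd10 (chr9:107547296-107547325, plus strand): gctccctcGTTTCCATGGCGACgacgactc
Hydin (chr8:110266948-110266977, plus strand): actctgcgGTTGCTGTGGCAACagatggta

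The first base of the X-box lay at position -27 from the RefSeq gene start in Cfap44, -12 in Enkur, 0 in Zmynd10 and -21 in Hydin, where 0 is the first base of the transcript. Cfap44 had the largest hippocampal rise among these 4, and its 250 bases before the start are given in full to show the site in its surroundings.

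Cfap44 (chr16:44394549-44394798, plus strand): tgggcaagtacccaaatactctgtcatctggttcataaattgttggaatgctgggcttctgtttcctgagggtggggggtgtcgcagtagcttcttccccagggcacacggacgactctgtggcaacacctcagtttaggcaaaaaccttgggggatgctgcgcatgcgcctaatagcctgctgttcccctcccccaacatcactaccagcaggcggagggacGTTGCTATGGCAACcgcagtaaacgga

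The outer dynein arm, which gives most of the force of the beat, was represented by 10 genes, of which 7 passed the filter. All 7 rose in the EYFP and hippocampal lines and 5 in the tdTomato line. Without the filter 6, 5 and 8 of the 10 rose in the tdTomato, EYFP and hippocampal lines. The background for this and the following classes is the share of all tested genes that rose, 39.9%, 38.2% and 39%, or fell, 38.5%, 37% and 37.3%. Without the filter it is 26%, 24.1% and 25.4% that rose and 22.8%, 21.8% and 22.1% that fell. Dnah9, an outer arm heavy chain (chr11:65831282-66168551), was at 3.24, 3.07 and 2.92 in tdTomato NSCs, 3.17, 3.00 and 2.65 in EYFP NSCs and 3.93, 3.11 and 3.07 in hippocampal NSCs. It was at 7.25, 6.77 and 6.58 in tdTomato astrocytes, 6.92, 6.81 and 6.27 in EYFP astrocytes and 8.18, 8.09 and 8.39 in hippocampal astrocytes. This is a rise of 3.79 ± 0.24 (limma adjusted p = 4.2e-10), 3.73 ± 0.24 (limma adjusted p = 5.85e-10) and 4.85 ± 0.24 (limma adjusted p = 1.5e-11), or 13.8-fold, 13.2-fold and 28.8-fold. A gene model on the opposite strand, Gm12296, shares 3.1% of the exonic bases of Dnah9 and moved with it, from 1.20 to 1.25 in NSCs to 3.48 to 4.58 in astrocytes as group means. Whether the counting used strand is not stated.

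Dnah5, another outer arm heavy chain, was near the bottom of its range in all NSC groups and rose in each line. It began at 1.60, 1.60 and 1.62 in tdTomato NSCs, 1.56, 1.54 and 1.59 in EYFP NSCs and 1.62, 1.62 and 2.15 in hippocampal NSCs. It stood afterwards at 4.65, 4.22 and 4.43 in tdTomato astrocytes, 4.86, 5.12 and 4.46 in EYFP astrocytes and 4.81, 5.21 and 5.50 in hippocampal astrocytes. The rises were 2.82 ± 0.23, 3.25 ± 0.23 and 3.38 ± 0.23, with limma adjusted p of 1.23e-08, 2.16e-09 and 1.15e-09. The docking factor Ttc25 rose by 1.10 in the tdTomato line, 1.17 in the EYFP line and 2.36 in the hippocampal line, and the arm assembly and docking protein Ccdc103 by 1.87 in the tdTomato line, 2.08 in the EYFP line and 2.05 in the hippocampal line. Ccdc103 shares 2.5% of its exonic bases with Fam187a on the same strand, which lay at 0.99 to 1.17 in NSCs and 2.55 to 3.55 in astrocytes as group means. The intermediate chains moved less. Dnaic1 rose by 0.56 and 0.60 in the EYFP and hippocampal lines and had 0.02 in the tdTomato line (limma adjusted p = 0.942). For Dnaic2 the values were 0.63 and 0.72, both past the threshold, and 0.42 (limma adjusted p = 0.168). The EYFP NSCs had 3.10, 4.60 and 3.64 for Dnaic2 and the EYFP astrocytes 4.47, 4.24 and 4.50, so that these groups overlapped. Without the filter the EYFP change of neither gene passed (limma adjusted p of 0.051 for Dnaic1 and 0.084 for Dnaic2).

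Zmynd10, a cytoplasmic factor for dynein arm assembly, stood at 2.70, 1.96 and 1.99 in tdTomato NSCs, 2.75, 2.93 and 2.53 in EYFP NSCs and 2.22, 2.42 and 2.92 in hippocampal NSCs. It stood at 3.02, 3.30 and 3.62 in tdTomato astrocytes, 3.43, 3.20 and 3.35 in EYFP astrocytes and 4.68, 4.92 and 5.31 in hippocampal astrocytes. Its rise was 2.45 ± 0.26 (limma adjusted p = 3.72e-07) in the hippocampal line and 1.10 ± 0.26 (limma adjusted p = 0.00193) in the tdTomato line, and its difference in the EYFP line was 0.59 ± 0.26 (limma adjusted p = 0.0809). In the fit with the filter the EYFP difference passed (limma adjusted p = 0.0413). There the call was lost without replicate 1 or 3 of the EYFP NSCs (0.60 and 0.48, limma adjusted p of 0.0748 and 0.133) and without replicate 1 or 3 of the EYFP astrocytes (0.54 and 0.58, limma adjusted p of 0.103 and 0.0812), and also with a pseudocount of 10 and with quantile normalization (limma adjusted p of 0.0591 and 0.309). The opposite-strand gene Gm34106 shares 10.1% of its exonic bases and lay between -1.24 and -0.82 as group means. Dnah11, Armc4 and Lrrc6, the members of this class below the filter, lay under 3.32 in every library.

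Of the 5 inner dynein arm genes, 4 passed the filter and rose in all 3 lines, and without the filter all 5 did. Dnah6 (chr6:73017606-73221651), an inner arm heavy chain, had the largest change of any member. It was close to uniform in NSCs, at 1.25, 1.24 and 1.27 in tdTomato NSCs, 1.19, 1.17 and 1.22 in EYFP NSCs and 1.63, 1.64 and 1.60 in hippocampal NSCs. It reached 3.02, 2.21 and 3.13 in tdTomato astrocytes, 3.69, 2.40 and 3.05 in EYFP astrocytes and 7.27, 6.87 and 8.07 in hippocampal astrocytes. The lowest hippocampal astrocyte library was thus far above the highest traced one, at 6.87 against 3.69. Its rise was 5.78 ± 0.33 (limma adjusted p = 1.07e-10) in the hippocampal line, or 55-fold, against 1.54 ± 0.33 (limma adjusted p = 0.000841) and 1.85 ± 0.33 (limma adjusted p = 0.000156) in the tdTomato and EYFP lines.

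Dnali1, the light intermediate chain of the inner arm, had NSC values of 2.48, 2.83 and 2.00 in tdTomato NSCs, 2.60, 2.88 and 2.65 in EYFP NSCs and 2.28, 2.87 and 2.83 in hippocampal NSCs. It had 4.63, 4.50 and 4.63 in tdTomato astrocytes, 4.35, 4.63 and 4.63 in EYFP astrocytes and 6.71, 6.46 and 6.87 in hippocampal astrocytes. The rises of 2.15 ± 0.22, 1.83 ± 0.22 and 4.02 ± 0.22 all passed, with limma adjusted p of 2.35e-07, 2.01e-06 and 6.36e-11. Dnah1, another inner arm heavy chain, varied more within a group. It began at 4.59, 3.18 and 3.64 in tdTomato NSCs, 3.83, 4.72 and 4.12 in EYFP NSCs and 3.72, 3.73 and 3.76 in hippocampal NSCs, and went to 4.90, 4.97 and 4.66 in tdTomato astrocytes, 5.27, 5.03 and 4.66 in EYFP astrocytes and 5.71, 5.31 and 5.56 in hippocampal astrocytes. It rose by 1.04 ± 0.29 (limma adjusted p = 0.00308) in the tdTomato line, 0.76 ± 0.29 (limma adjusted p = 0.0227) in the EYFP line and 1.79 ± 0.29 (limma adjusted p = 1.83e-05) in the hippocampal line. The EYFP call was lost without replicate 1 or 3 of the EYFP NSCs (0.57 and 0.71, limma adjusted p of 0.112 and 0.0612) and without replicate 1 or 2 of the EYFP astrocytes (0.62 and 0.74, limma adjusted p of 0.0918 and 0.0538). Dynlrb2, a light chain shared with the dynein of intraflagellar transport, rose by 0.64 in the tdTomato line, 1.24 in the EYFP line and 1.68 in the hippocampal line. Dnah12, below the filter, lay between 0.92 and 1.75 in NSCs and between 1.56 and 2.82 in astrocytes.

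The radial spokes, the nexin link and the ruler were represented by 10 genes, 9 of which passed the filter and rose in the hippocampal line. In each traced line 7 of the 9 rose, and 1 fell in the EYFP line. Without the filter 7, 6 and 9 of the 10 rose in the tdTomato, EYFP and hippocampal lines. Drc1 (chr5:30281388-30366695), a core subunit of the nexin-dynein regulatory complex, had 3.36, 3.08 and 3.27 in tdTomato NSCs, 3.40, 3.66 and 3.89 in EYFP NSCs and 3.80, 3.88 and 3.47 in hippocampal NSCs. It stood afterwards at 5.10, 5.12 and 4.85 in tdTomato astrocytes, 5.69, 5.68 and 5.61 in EYFP astrocytes and 7.70, 7.52 and 7.95 in hippocampal astrocytes. The 3 groups of astrocytes did not overlap, and all lay above all NSCs. The rise was 1.79 ± 0.17 (limma adjusted p = 1.66e-08), 2.01 ± 0.17 (limma adjusted p = 3.65e-09) and 4.01 ± 0.17 (limma adjusted p = 1.99e-13).

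Ccdc153, another subunit of that complex and a common marker of ependymal cells, was at 2.07, 2.27 and 1.84 in tdTomato NSCs, 1.76, 1.99 and 2.84 in EYFP NSCs and 3.02, 2.31 and 2.74 in hippocampal NSCs. The values were 3.08, 2.96 and 2.71 in tdTomato astrocytes, 2.68, 2.34 and 3.12 in EYFP astrocytes and 5.92, 5.65 and 6.02 in hippocampal astrocytes. Traced astrocytes overlapped with hippocampal NSCs, whereas the hippocampal astrocytes stood alone. The change was 3.17 ± 0.29 (limma adjusted p = 4.69e-08) in the hippocampal line, 0.85 ± 0.29 (limma adjusted p = 0.0213) in the tdTomato line and 0.51 ± 0.29 (limma adjusted p = 0.174) in the EYFP line. In the fit with the filter the EYFP change passed without replicate 3 of the EYFP NSCs (0.84, limma adjusted p = 0.00949) or replicate 2 of the EYFP astrocytes (0.70, limma adjusted p = 0.0461).

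Rsph4a, a protein of the spoke head, was at 2.53, 2.35 and 2.71 in tdTomato NSCs, 2.60, 1.84 and 2.50 in EYFP NSCs and 2.56, 2.96 and 2.35 in hippocampal NSCs. After differentiation it read 3.02, 3.01 and 3.02 in tdTomato astrocytes, 3.38, 3.20 and 2.64 in EYFP astrocytes and 5.62, 5.23 and 5.87 in hippocampal astrocytes. The hippocampal rise of 2.95 ± 0.26 (limma adjusted p = 3.51e-08) compares with 0.76 ± 0.26 (limma adjusted p = 0.0263) in the EYFP line and 0.49 ± 0.26 (limma adjusted p = 0.147) in the tdTomato line. In the fit with the filter the last passed with median centring (0.57, limma adjusted p = 0.0441). In that fit, without replicate 2 of the EYFP NSCs or replicate 1 of the EYFP astrocytes, the EYFP change was 0.52 and 0.60 and no longer passed (limma adjusted p of 0.0803 and 0.0593). Rsph1 and Rsph9, also of the spoke head, rose in all 3 lines, Rsph1 by 2.15 in the tdTomato line, 1.93 in the EYFP line and 2.60 in the hippocampal line and Rsph9 by 0.83 in the tdTomato line, 1.09 in the EYFP line and 1.89 in the hippocampal line.

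Lrrc23, a spoke protein, moved in opposite directions. It was at 4.01, 3.74 and 3.17 in tdTomato NSCs, 3.87, 3.89 and 3.65 in EYFP NSCs and 3.26, 3.36 and 3.79 in hippocampal NSCs. It was at 3.11, 2.84 and 3.32 in tdTomato astrocytes, 2.84, 2.00 and 3.25 in EYFP astrocytes and 5.00, 4.78 and 5.22 in hippocampal astrocytes. Hippocampal astrocytes were above all other libraries, and EYFP astrocytes below the NSCs of the same line. The change was 1.53 ± 0.28 (limma adjusted p = 8.41e-05) in the hippocampal line, -1.11 ± 0.28 (limma adjusted p = 0.00176) in the EYFP line and -0.55 ± 0.28 (limma adjusted p = 0.0845) in the tdTomato line. The last passed without replicate 3 of the tdTomato NSCs (-0.78, limma adjusted p = 0.0251) or replicate 2 of the EYFP astrocytes (-0.55, limma adjusted p = 0.0393), and with quantile normalization (-0.91, limma adjusted p = 0.00747).

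Ccdc39 and Ccdc40 form the ruler that sets the spacing of the arms and spokes along the doublet. Ccdc39 rose by 1.03 in the tdTomato line, 1.14 in the EYFP line and 1.42 in the hippocampal line. For Ccdc40 the NSC values were 4.52, 4.74 and 3.92 in tdTomato NSCs, 5.31, 5.58 and 5.42 in EYFP NSCs and 4.95, 4.83 and 4.65 in hippocampal NSCs, and the EYFP NSCs lay above the tdTomato NSCs. After differentiation it read 6.05, 5.80 and 5.76 in tdTomato astrocytes, 5.99, 5.70 and 5.90 in EYFP astrocytes and 7.81, 7.43 and 7.80 in hippocampal astrocytes. The rise was 2.87 ± 0.18 (limma adjusted p = 8.06e-11) in the hippocampal line, 1.47 ± 0.18 (limma adjusted p = 7.08e-07) in the tdTomato line and 0.43 ± 0.18 (limma adjusted p = 0.041) in the EYFP line. The EYFP call was lost without replicate 1 or 3 of the EYFP NSCs (0.36 and 0.42, limma adjusted p of 0.122 and 0.0816) and without replicate 1 or 3 of the EYFP astrocytes (0.36 and 0.41, limma adjusted p of 0.121 and 0.0892), and also without the filter and with quantile normalization (limma adjusted p of 0.0663 and 0.204). Iqcg, of the nexin link, rose by 1.64 in the tdTomato line, 1.48 in the EYFP line and 2.37 in the hippocampal line, but shares 48.1% of its exonic bases with Lrch3 on the other strand, which lay at 10.66 to 10.71 in NSCs and 10.95 to 11.20 in astrocytes as group means. Ccdc39 shares 16.9% with Ttc14 in the same way. Ccdc113 was below 3.32 in every library.

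The central apparatus and the dynein tether held the 2 members that fell in all 3 lines. Of 8 genes, 5 passed the filter, and in the hippocampal line 3 of them rose and 2 fell. Without the filter 3 of the 8 rose and 4 fell in the tdTomato line, 3 and 3 in the EYFP line and 4 and 2 in the hippocampal line. Cfap43 and Cfap44 are partners in the tether that anchors an inner arm dynein to the doublet, and they moved in opposite directions in all 3 lines. Cfap43 (chr19:47736857-47919287) had 10.29, 10.26 and 10.10 in tdTomato NSCs, 10.54, 10.41 and 10.35 in EYFP NSCs and 9.25, 9.42 and 9.06 in hippocampal NSCs. It had 7.49, 7.37 and 7.36 in tdTomato astrocytes, 7.62, 7.41 and 7.58 in EYFP astrocytes and 8.02, 7.90 and 8.26 in hippocampal astrocytes. The NSC libraries were above the astrocyte libraries throughout, and the traced lines started higher and ended lower than the hippocampal line. It fell by 2.81 ± 0.10 in the tdTomato line, by 2.90 ± 0.10 in the EYFP line and by 1.18 ± 0.10 in the hippocampal line (limma adjusted p of 2.58e-14, 1.8e-14 and 4.21e-09). Its annotated exons share 164 bases, 2.3%, with Itprip on the same strand, which was not analysed here.

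Cfap44 (chr16:44394796-44482428) had 2.57, 3.41 and 3.01 in tdTomato NSCs, 3.34, 3.62 and 3.69 in EYFP NSCs and 3.84, 3.32 and 3.80 in hippocampal NSCs. After differentiation it read 5.74, 5.79 and 5.65 in tdTomato astrocytes, 5.81, 6.09 and 6.05 in EYFP astrocytes and 7.75, 7.62 and 8.10 in hippocampal astrocytes. It rose by 2.73 ± 0.20 (limma adjusted p = 7.8e-10), 2.43 ± 0.20 (limma adjusted p = 4.34e-09) and 4.17 ± 0.20 (limma adjusted p = 1.99e-12). Spef2, a protein of the central apparatus, was at 3.47, 3.34 and 3.50 in tdTomato NSCs, 3.49, 3.13 and 2.90 in EYFP NSCs and 3.25, 3.26 and 4.03 in hippocampal NSCs. It then reached 6.17, 5.81 and 5.58 in tdTomato astrocytes, 6.10, 6.08 and 5.77 in EYFP astrocytes and 6.43, 6.49 and 6.73 in hippocampal astrocytes. Its rises of 2.42 ± 0.22, 2.81 ± 0.22 and 3.04 ± 0.22 all passed, with limma adjusted p of 1.05e-08, 1.45e-09 and 4.39e-10.

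Hydin, a very large protein of the central apparatus, was at 6.03 to 7.36 in the 9 NSC libraries and at 3.85 to 5.22 in the 9 astrocyte libraries, with no overlap. It fell by 2.49 ± 0.24, 2.67 ± 0.24 and 1.37 ± 0.24 in the tdTomato, EYFP and hippocampal lines (limma adjusted p of 2.78e-08, 1.22e-08 and 4.61e-05). Cfap54, also of the central apparatus, had -0.95 ± 0.19 (limma adjusted p = 0.000159) in the tdTomato line, -0.28 ± 0.19 (limma adjusted p = 0.183) in the EYFP line and 1.25 ± 0.19 (limma adjusted p = 7.99e-06) in the hippocampal line. Spag16, Spag17 and Cfap70 were below the filter, and Spag16 lay at the bottom of the scale. Without the filter, Spag17 fell by 1.06 and 1.55 in the tdTomato and EYFP lines (limma adjusted p of 0.000303 and 5.49e-06). It shares 9.7% of its exonic bases with Wdr3 on the other strand, at 9.42 to 9.65 in NSCs and 8.97 to 9.01 in astrocytes. In the same fit, Cfap70 rose by 1.26, 1.15 and 2.02 in the tdTomato, EYFP and hippocampal lines (limma adjusted p of 0.000307, 0.000756 and 1.73e-06).

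The proteins inside the doublet tubules had the smallest share of members past the filter, 3 of 7. Of these, 2, 1 and 2 rose in the tdTomato, EYFP and hippocampal lines. Without the filter 2, 1 and 5 of the 7 rose, and 1, 1 and 0 fell. In the traced lines these counts lay near the shares of all genes in that fit. Those were 26% and 24.1% that rose and 22.8% and 21.8% that fell. Enkur, one of these inner proteins, had 3.86, 4.05 and 3.63 in tdTomato NSCs, 3.92, 4.01 and 4.15 in EYFP NSCs and 4.16, 4.04 and 3.24 in hippocampal NSCs. After differentiation it read 5.41, 5.04 and 5.28 in tdTomato astrocytes, 5.07, 4.72 and 4.90 in EYFP astrocytes and 6.91, 6.71 and 7.34 in hippocampal astrocytes. It rose by 1.40 ± 0.22 (limma adjusted p = 1.49e-05), 0.87 ± 0.22 (limma adjusted p = 0.00167) and 3.17 ± 0.22 (limma adjusted p = 3.19e-10). Cfap52 (chr11:67924806-67965651), another, was at 2.25, 2.71 and 2.61 in tdTomato NSCs, 1.73, 2.15 and 2.22 in EYFP NSCs and 2.61, 2.98 and 2.57 in hippocampal NSCs. It was at 2.67, 2.50 and 2.33 in tdTomato astrocytes, 2.97, 2.08 and 2.35 in EYFP astrocytes and 5.90, 5.36 and 5.64 in hippocampal astrocytes. The traced astrocytes stayed within the range of the NSCs, and the hippocampal astrocytes were more than 2 above every other library. Its change was 2.92 ± 0.26 (limma adjusted p = 2.81e-08) in the hippocampal line, 0.43 ± 0.26 (limma adjusted p = 0.192) in the EYFP line and -0.03 ± 0.26 (limma adjusted p = 0.953) in the tdTomato line. In the fit with the filter the EYFP change passed without replicate 2 of the EYFP astrocytes (0.63, limma adjusted p = 0.038). On the opposite strand, 9130017K11Rik shares 8.4% of its exonic bases and had group means of -0.29 to 0.01 in 5 groups and 1.85 in the hippocampal astrocytes.

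Tekt2, a tektin filament protein, was level by comparison, with 3.50, 3.02 and 3.53 in tdTomato NSCs, 3.79, 3.60 and 3.85 in EYFP NSCs and 3.44, 3.91 and 4.01 in hippocampal NSCs. It stood afterwards at 3.73, 4.21 and 4.38 in tdTomato astrocytes, 3.63, 4.09 and 4.21 in EYFP astrocytes and 3.82, 3.96 and 3.84 in hippocampal astrocytes. It rose in the tdTomato line by 0.76 ± 0.22 (limma adjusted p = 0.00433), and its differences in the EYFP and hippocampal lines were 0.23 ± 0.22 (limma adjusted p = 0.341) and 0.08 ± 0.22 (limma adjusted p = 0.747). Gm12945 on the opposite strand shares 20.8% of its exonic bases and lay between -0.97 and -0.81 as group means. Tekt1, Tekt4, Cfap45 and Cfap53 did not reach 3.32 in any library. Without the filter, Tekt1, Tekt4 and Cfap45 rose in the hippocampal line by 0.87, 0.98 and 0.59 (limma adjusted p of 0.00626, 0.00041 and 0.0185), and Tekt1 fell in the tdTomato and EYFP lines by 0.74 and 0.65 (limma adjusted p of 0.0177 and 0.0373).

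Fam183b and Tppp3, also in use as markers of ependymal cells, rose in all 3 lines. Fam183b had 1.41, 1.41 and 2.17 in tdTomato NSCs, 1.38, 1.65 and 2.29 in EYFP NSCs and 1.42, 1.97 and 1.70 in hippocampal NSCs. After differentiation it read 3.72, 3.61 and 3.25 in tdTomato astrocytes, 3.79, 3.47 and 3.85 in EYFP astrocytes and 3.71, 3.55 and 3.60 in hippocampal astrocytes. This is a rise of 1.86 ± 0.28 (limma adjusted p = 1.66e-05), 1.93 ± 0.28 (limma adjusted p = 1.19e-05) and 1.92 ± 0.28 (limma adjusted p = 1.18e-05). Tppp3, a tubulin-binding protein, was at 3.95, 3.59 and 2.97 in tdTomato NSCs, 4.08, 4.00 and 4.43 in EYFP NSCs and 3.85, 3.55 and 3.50 in hippocampal NSCs. It was at 4.41, 4.44 and 4.65 in tdTomato astrocytes, 5.21, 5.09 and 5.66 in EYFP astrocytes and 4.59, 4.83 and 4.30 in hippocampal astrocytes. It rose by 0.99 ± 0.23, 1.15 ± 0.23 and 0.94 ± 0.23, with limma adjusted p of 0.000791, 0.00022 and 0.00137. Its highest values were those of the EYFP astrocytes. Mlf1 fell in the traced lines and rose in the hippocampal line. It was at 6.00, 6.19 and 6.50 in tdTomato NSCs, 5.12, 5.67 and 5.69 in EYFP NSCs and 6.12, 5.92 and 6.01 in hippocampal NSCs, and at 5.43, 5.12 and 5.41 in tdTomato astrocytes, 5.04, 4.95 and 4.64 in EYFP astrocytes and 6.87, 6.59 and 6.67 in hippocampal astrocytes. The changes were -0.91 ± 0.17 (limma adjusted p = 9.51e-05), -0.61 ± 0.17 (limma adjusted p = 0.00348) and 0.69 ± 0.17 (limma adjusted p = 0.0013). The adenylate kinase Ak7 was below 3.32 in every library.

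**Figure D3:**
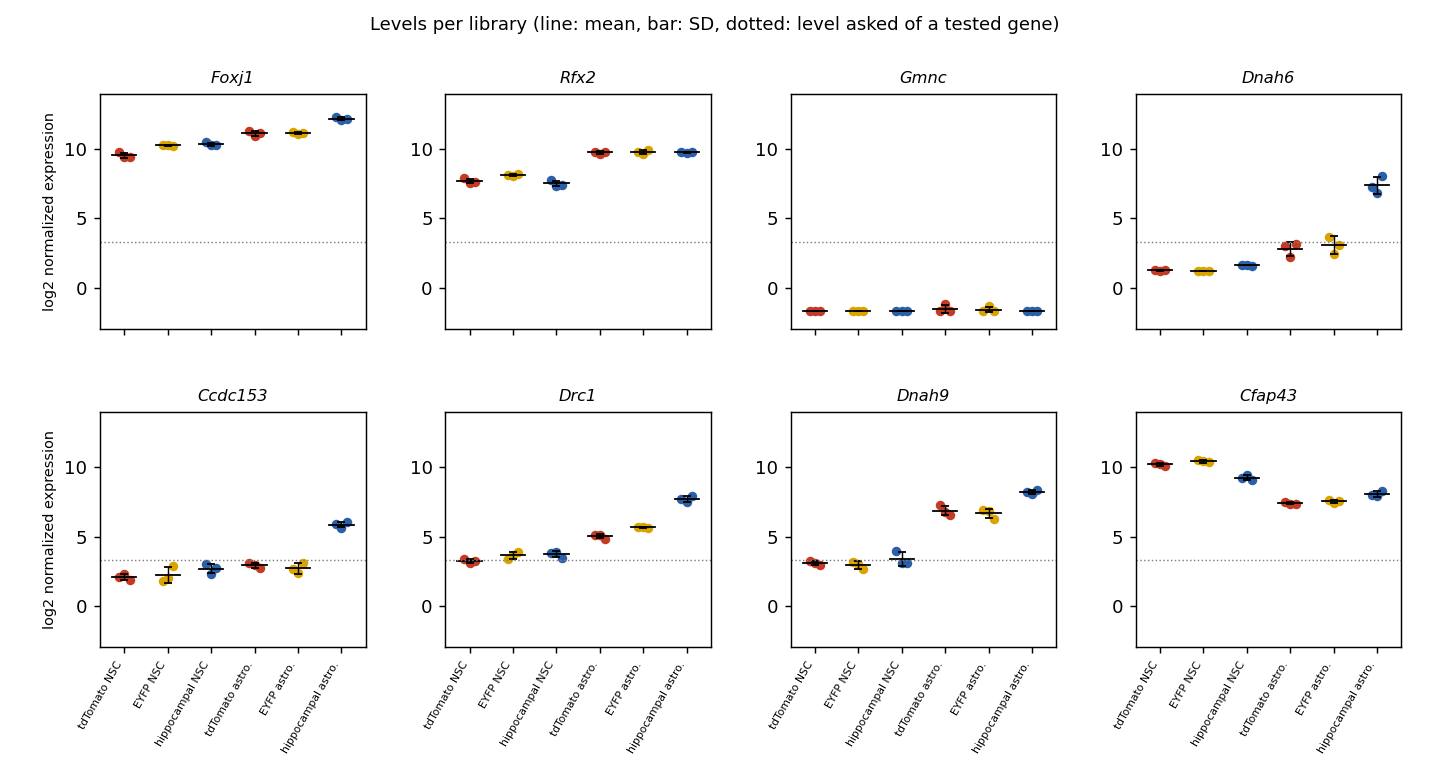
Log2 normalized expression per library (points), with the mean (line) and SD (bar) of each group of n = 3, for 8 members. The dotted line marks 3.32. Foxj1, Dnah9 and Drc1 are higher in all astrocyte groups and highest in hippocampal astrocytes, Rfx2 is level across the astrocyte groups, Dnah6 and Ccdc153 stand out in hippocampal astrocytes, Gmnc stays at the bottom and Cfap43 falls.

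The change from NSC to astrocyte was then compared between the traced lines, as the mean of the tdTomato and EYFP changes, and the hippocampal line. For 24 of the 34 members tested the traced change was lower, and for none was it higher (interaction in limma, adjusted p under 0.05), against 25.9% of all tested genes that were lower and 20.3% that were higher. At an unadjusted p under 0.05 there were 25 members, all lower. With a difference of at least 1, 17 were lower, against 6.31% of all genes. These 17 include Dnah6, Cfap52, Ccdc153 and Rsph4a, which would not have passed the filter without the hippocampal astrocytes, so a difference was built into their passing. Dnali1 and Zmynd10 among them passed it through astrocyte libraries alone. Over all 49 without the filter, 26 were lower and none higher, against 14.7% and 11.3% of all genes, and the median difference was -0.74 with a range of -4.09 to 0.41. Median centring moved the median change of all genes in the tdTomato line from 0.015 to 0.101. Of all tested genes with a different change, 43.9% were higher in the traced lines. That share was 56.2% after median centring and 53.6% after quantile normalization of the libraries, while no member was higher under either.

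**Figure D4:**
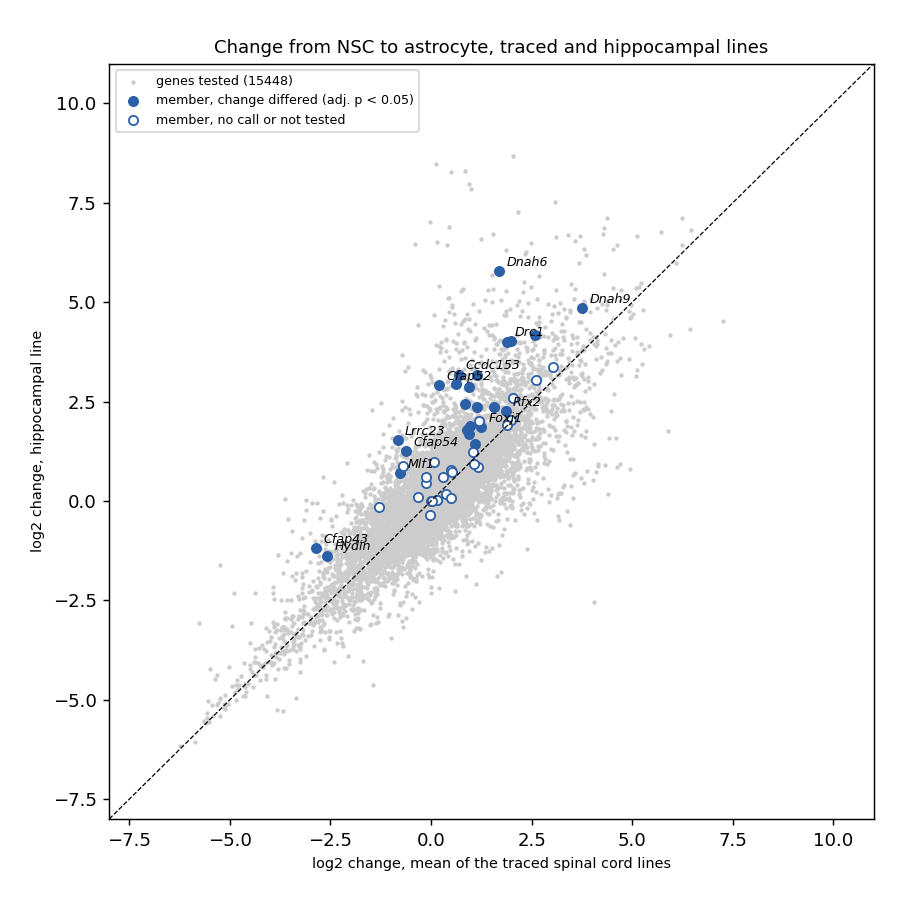
Log2 change from NSC to astrocyte in the hippocampal line (vertical axis) against the mean change of the traced lines (horizontal axis), for the 15448 genes tested (grey) and the 49 motile cilium genes (blue). Filled points are the 24 members whose change differed at an adjusted p under 0.05, and all of them lie above the dashed line of equal change.

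By role, the traced change was lower for 2 of 3 regulators tested, 3 of 7 outer arm genes, 4 of 4 inner arm genes, 8 of 9 genes of the spokes, nexin link and ruler, 4 of 5 of the central apparatus and tether, 2 of 3 of the tubule lumen and 1 of the 3 others. Without the filter it was lower for 2 of 5, 3 of 10, 3 of 5, 7 of 10, 5 of 8, 5 of 7 and 1 of 4 genes of these classes. The background for each class is the share of all genes with a lower traced change, 25.9% with the filter and 14.7% without it. The difference of the changes was -4.09 ± 0.41 (limma adjusted p = 9.02e-07) for Dnah6, -2.71 ± 0.31 (limma adjusted p = 4.57e-06) for Cfap52 and -2.49 ± 0.36 (limma adjusted p = 4.26e-05) for Ccdc153. These were the largest 3 differences among the 49 members. For Lrrc23, Rsph4a, Drc1, Enkur and Dnali1 it lay between -2.36 and -2.03. Cfap43 and Hydin differed by -1.67 and -1.20, which here means a deeper fall in the traced lines.

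The regulators differed less. Foxj1 had a difference of -0.61 ± 0.11 (limma adjusted p = 0.000222), Rfx2 of -0.39 ± 0.12 (limma adjusted p = 0.0121) and Rfx3 of -0.20 ± 0.09 (limma adjusted p = 0.0816). Rfx3 passed without replicate 3 of the tdTomato astrocytes (-0.23, limma adjusted p = 0.0375). Among outer arm heavy chains the difference was -1.09 ± 0.30 (limma adjusted p = 0.0104) for Dnah9 and -0.34 ± 0.28 (limma adjusted p = 0.456) for Dnah5. Dnah1 passed narrowly, at -0.89 ± 0.35 (limma adjusted p = 0.0467), and lost its call in 13 of the 18 fits that left out 1 library, with differences of -0.92 to -0.69 and limma adjusted p of up to 0.11. It was also lost without the filter, with median centring, with quantile normalization and without the variance trend (limma adjusted p of 0.0859, 0.0684, 0.0649 and 0.0587). Spef2, Tppp3, Fam183b and Ccdc103 had differences of -0.42, 0.14, -0.03 and -0.07 that did not pass. Without replicate 3 of the hippocampal NSCs the difference of Spef2 was -0.68 and passed (limma adjusted p = 0.0293), as it did with a pseudocount of 10 (-0.44, limma adjusted p = 0.0446).

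Compared directly, hippocampal astrocytes were above traced astrocytes for 28 of the 34 members and below for none, against 31.9% of all tested genes above and 27.9% below (limma, adjusted p under 0.05). Over all 49 without the filter they were above for 31 and below for none, against 20.1% and 16.3% of all genes. All 3 hippocampal astrocyte libraries lay above all 6 traced ones for 28 of the 49 members, as did 17.7% of all genes, and below them for none, as did 12.7%. For 25 of the 49 they lay above all other 15 libraries, as did 10% of all genes. Traced minus hippocampal astrocytes gave -4.49 ± 0.29 for Dnah6, -2.38 ± 0.14 for Drc1 and -1.04 ± 0.08 for Foxj1, with limma adjusted p of 1.46e-09, 1.33e-10 and 2.63e-09. Cfap52 and Ccdc153, which reached 3.32 in 3 libraries through the hippocampal astrocytes alone, had -3.15 ± 0.22 (limma adjusted p = 4.42e-09) and -3.05 ± 0.25 (limma adjusted p = 3.17e-08). Rfx2 and Rfx3 had 0.01 ± 0.08 (limma adjusted p = 0.952) and 0.07 ± 0.06 (limma adjusted p = 0.349).

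NSCs of the lines differed in fewer members. Traced NSCs were higher than hippocampal NSCs for 5 of the 34 members and lower for 4, against 17% and 14.9% of all tested genes (limma, adjusted p under 0.05). Without the filter 6 were higher and 4 lower of the 49, against 8.81% and 8.54% of all genes. Cfap43, Rsph9, Hydin, Rfx2 and Rfx3 were higher, by 1.08, 0.92, 0.67, 0.40 and 0.27. Dynlrb2, Cfap54, Foxj1 and Iqcg were lower, with -0.61, -0.49, -0.44 and -0.41.

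Between the traced lines, few members differed in their change to astrocytes. EYFP minus tdTomato, 2 of the 34 members differed in their change, both lower, against 6.36% of all tested genes lower and 6.98% higher. Without the filter 2 of the 49 were lower and none higher, against 2.95% and 3.06% of all genes. They were Ccdc40 with -1.05 ± 0.26 (limma adjusted p = 0.0115) and Foxj1 with -0.72 ± 0.13 (limma adjusted p = 0.00139). Both were higher in EYFP than in tdTomato NSCs, by 1.04 ± 0.18 (limma adjusted p = 0.00032) and 0.73 ± 0.09 (limma adjusted p = 1.16e-05). In astrocytes their difference was -0.004 ± 0.181 (limma adjusted p = 0.992) and 0.01 ± 0.09 (limma adjusted p = 0.958). Rfx2 had a difference of change of -0.41 ± 0.14 (limma adjusted p = 0.0596), which did not pass. It passed without replicate 1 of the tdTomato NSCs, replicate 1 of the hippocampal NSCs or replicate 3 of the EYFP astrocytes (-0.50, -0.41 and -0.47, limma adjusted p of 0.0162, 0.0328 and 0.0462), and with median centring or quantile normalization (-0.43 and -0.40, limma adjusted p of 0.043 and 0.0469).

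Among NSCs, 6 members were higher in the EYFP than in the tdTomato line (Ccdc40, Foxj1, Tppp3, Cfap44, Rfx2 and Rfx3) and 2 lower (Mlf1 and Dnaic1), against 14.9% and 16.4% of all tested genes. Over all 49 without the filter, 3 were higher and 1 lower, against 7.44% and 8.34% of all genes. Without replicate 3 of the tdTomato NSCs, or replicate 2 or 3 of the EYFP NSCs, 3 were higher. The 2 lower became 1 without any of 8 libraries, which were all replicates of the tdTomato NSCs, replicates 1 and 3 of the EYFP NSCs, replicate 2 of the hippocampal NSCs and the third replicates of both traced astrocyte groups. In astrocytes 4 were higher in the EYFP line, against 7.31% of all genes, and none lower, against 7.06%. Without the filter 4 were higher and none lower of the 49, against 3.63% and 3.89% of all genes. These were Dynlrb2, Cfap54, Tppp3 and Drc1, by 0.91, 0.89, 0.82 and 0.64. At an unadjusted p under 0.05 there were 6.

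Further lists of cilium genes were counted in the same fit. The shares of all tested genes given above, 39.9%, 38.2% and 39% that rose and 38.5%, 37% and 37.3% that fell in the tdTomato, EYFP and hippocampal lines, are the background for each list, and for the difference of change 25.9% were lower and 20.3% higher. Of 68 other motile axoneme and assembly genes in the table, 50 were tested, and 26 rose and 10 fell in the tdTomato line, 25 and 9 in the EYFP line and 40 and 6 in the hippocampal line. The traced change was lower for 28 of these and higher for none. Over all 68 without the filter, 28, 26 and 47 rose and 11, 10 and 7 fell in the tdTomato, EYFP and hippocampal lines, and the traced change was lower for 30 and higher for 1. Dnah10, an inner arm heavy chain, was at 1.78 to 3.52 in the 9 NSC libraries, at 2.77 to 3.49 in the 6 traced astrocyte libraries and at 7.06, 7.19 and 7.07 in hippocampal astrocytes, a difference of change of -3.59 ± 0.34 (limma adjusted p = 1.5e-07). Nme5 rose by 3.01 in the hippocampal line. Wdr63 reached 3.32 in the hippocampal astrocytes alone, at 4.51, 3.94 and 4.39, so its passing the filter had a difference built in. Its change in that line was 3.56 (limma adjusted p = 3.07e-10 without the filter).

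Genes of intraflagellar transport and the BBSome serve primary and motile cilia alike. All 40 were tested, and 23, 22 and 29 rose and 9, 6 and 4 fell in the tdTomato, EYFP and hippocampal lines. The median change was 0.17, 0.21 and 0.46. Bbs1, Ttc30b and Ift22 had the largest rises in the hippocampal line, by 1.34, 1.31 and 1.30. The traced change was lower for 19 and higher for 2.

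Genes that make many centrioles in multiciliated cells, together with their regulators, went the other way. Of the 17 that were found, 15 were tested, and 12, 11 and 11 fell while 1, 0 and 1 rose in the tdTomato, EYFP and hippocampal lines. Many of them also serve the centriole cycle of dividing cells. Gmnn, Stil and Plk4, with the largest changes of the list, fell in the hippocampal line by 3.77, 3.31 and 2.92, beside the fall of Mki67 given above, and the part of cycling cells in this was not tested. Deup1, which builds the deuterosome of multiciliated cells, lay between -2.14 and -2.00 in every library and Foxn4 between -1.85 and -1.55.

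Ependymal genes outside the axoneme are shared with astrocytes and other glia. Of 11 tested, 9 rose in each line and 2, 2 and 1 fell, and the traced change was lower for 9 and higher for none. The largest rises were those of the water channel Aqp4, of Tm4sf1 and of Calml4, by 4.85, 3.86 and 3.67 in the hippocampal line. Aqp4 also stands in the list of astrocyte markers. All 8 astrocyte markers were tested, and 8, 7 and 7 rose and none fell.

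Markers of other cells that could bear cilia or have come from the tissue were measured in the same libraries. Of 6 choroid plexus genes, 1 was tested. Folr1 rose from 1.70, 1.70 and 1.72 in tdTomato NSCs, 1.65, 1.64 and 1.68 in EYFP NSCs and 2.03, 2.03 and 1.69 in hippocampal NSCs to 4.66, 4.40 and 4.29 in tdTomato astrocytes, 5.26, 4.45 and 5.60 in EYFP astrocytes and 5.84, 6.28 and 5.93 in hippocampal astrocytes. It reached 3.32 in astrocyte libraries alone. Its changes without the filter had limma adjusted p of up to 4.01e-08. The defining gene Ttr lay between -2.00 and -1.77 in every library and Clic6 and Otx2 below 0 throughout. The sum of the 6 on the linear scale was 6.53 to 8.38 in NSCs, 22.8 to 51.8 in traced and 60.9 to 82.3 in hippocampal astrocytes, where most of it was Folr1. Of 7 endothelial and pericyte genes, 4 were tested. Vtn was at 1.86, 2.14 and 2.10 in hippocampal NSCs and 8.79, 8.07 and 8.99 in hippocampal astrocytes, and at 1.56 to 4.02 in traced astrocytes, so that it moved with the members that stood out there. The sum of the 7 was 132.3 to 454.2 in NSCs, 239 to 409.6 in traced astrocytes and 560.6 to 763.8 in hippocampal astrocytes. Of the 4, 1, 3 and 2 rose and 1, 1 and 2 fell in the tdTomato, EYFP and hippocampal lines. Kcnj8 rose in all 3 lines, by 3.99, 4.74 and 4.92. Myl9 fell in all 3, by 1.25, 1.18 and 0.66, while Flt1 rose in the EYFP line by 1.56 and fell in the hippocampal line by 0.63. Of 4 immune genes, Zbtb46, a transcription factor of conventional dendritic cells that endothelial cells also express, was the one tested. It lay at 8.08 to 8.75 over the 18 libraries and rose by 0.43 ± 0.06, 0.42 ± 0.06 and 0.33 ± 0.06 in the tdTomato, EYFP and hippocampal lines (limma adjusted p of 1.79e-06, 2.99e-06 and 3.68e-05). Csf1r lay at 0.47 to 1.76, and Ptprc and Aif1 at -1.57 to -1.14 and -2.15 to -2.04 in every library. The part of other cell types in the member results was not tested.

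The 5 tested genes whose pattern was most like that of Foxj1 over the 18 libraries were Mt3, Palld, Ddr1, Gna13 and Antxr1, with Pearson's r of 0.991, 0.989, 0.989, 0.987 and 0.987. None of them is a member. The libraries fall into the 2 fates, which this measure shares, so the values are a description.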

How the data were processed

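Per the labels and the study's methods, the authors aligned reads with STAR and estimated gene counts with RSEM on Ensembl annotation of GRCm38, then normalized with DESeq2 (version 1.18.1 per the submitters' processing notes). The library kit differs between labels and methods, and strand use in counting is not given in the sources used here. The deposited values are log2 values in the form of a regularized log. The transform is not named, and reads per library cannot be recovered from it. Here, limma (version 3.58.1, R 4.3.3) with a variance trend was fitted once to the 6 group means of 18 libraries, for genes at 3.32 or more in at least 3 libraries, with Benjamini-Hochberg adjustment at 0.05. For 9 members that reached this level in fewer than 3 NSC libraries, the values given are from the fit without the filter. The design had allowed for linear values. They were log2, so no pseudocount was added. The procedure was tested on simulated data.

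The members and lists were chosen with earlier results of these data known. Members named with every library are the regulators, up to 3 per role with the largest called change, those with the largest called differences of change (up to 8 between traced and hippocampal lines and up to 4 between traced lines, where 2 were called), and Ccdc153, Fam183b and Tppp3. Of other lists, up to 3 genes with the largest called change are named. Alternatives were no filter, a filter on the mean, a filter of 100, pseudocounts of 1 and 10, median centring, quantile normalization, no trend, a replicate block, fits of the compared groups alone and leaving out each library. A minimum difference of 1 was added after the data were seen. Cdc20b, Pih1d3, Tctex1d1, Cfap47, Pifo, Tekt3, Tmem212, Cx3cr1, Clec9a and Cldn5 were on the lists but are not analysed here.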

Additional observations from a re-analysis of the deposited data

Results flagged for a closer look

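For 17 of the named members the change from NSC to astrocyte differed between the mean of the traced lines and the hippocampal line in a test of the difference itself (interaction in limma, adjusted p under 0.05). Some members were named for this difference, so the count describes the choice. Among the 34 members tested 24 differed, all with a lower traced change, against 25.9% of all tested genes that were lower. The differences, traced minus hippocampal on the log2 scale, were -4.09 for Dnah6, -2.71 for Cfap52, -2.49 for Ccdc153, -2.36 for Lrrc23, -2.33 for Rsph4a and -2.11 for Drc1. They were -2.04 for Enkur, -2.03 for Dnali1, -1.92 for Ccdc40, -1.67 for Cfap43, -1.61 for Zmynd10 and -1.59 for Cfap44. The smallest were -1.46 for Mlf1, -1.09 for Dnah9, -0.89 for Dnah1, -0.61 for Foxj1 and -0.39 for Rfx2. Dnah6, Cfap52, Ccdc153, Rsph4a, Dnali1 and Zmynd10 reached the filter level in astrocyte libraries alone, and the first 4 would not have passed it without the hippocampal astrocytes, so their calls in that fit had a difference built in. Without the filter their limma adjusted p was 9.02e-07 to 0.00109. Dnah1 lost its call in 13 fits that left out 1 library and in 4 other settings, as reported above.

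Between the traced lines, EYFP minus tdTomato, the change differed for Ccdc40 (-1.05) and Foxj1 (-0.72) by the same test. The causes of these differences were not tested. Both traced lines come from spinal cord, and between them line, reporter and genotype cannot be told apart. Between the traced and hippocampal lines, line, tissue and genotype cannot be told apart.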

How the results depend on the processing

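None of the 81 named members' values that passed changed sign under any alternative run, and 11 of the 34 that did not pass did. The split of all tested genes given above turned from mostly lower to mostly higher under both rescalings. A filter of 100 left 17 members tested, and the counts fell with them: 15 rose and 2 fell in each traced line, 15 rose in the hippocampal line, 15 had a lower change in the traced than in the hippocampal line, 14 were lower in traced than in hippocampal astrocytes, 2 were higher in EYFP than in tdTomato astrocytes and 0 lower in EYFP than in tdTomato NSCs. With a difference of at least 1, the tdTomato line had 2 that fell, EYFP minus tdTomato had 1 lower change, traced minus hippocampal NSCs had 1 higher and 0 lower, EYFP minus tdTomato NSCs 1 and 0, traced astrocytes 18 lower than hippocampal ones and EYFP astrocytes 0 higher than tdTomato ones. EYFP minus tdTomato NSCs gave 3 higher and 1 lower without a filter, and 1 lower with a pseudocount of 10 or quantile normalization.

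Leaving out 1 library at a time, members that rose numbered 25 to 25 in the tdTomato, 20 to 26 in the EYFP and 29 to 31 in the hippocampal line, and those that fell 4 to 5, 4 to 4 and 2 to 2. A lower traced change was found for 21 to 24 and a lower EYFP than tdTomato change for 2 to 3. EYFP minus tdTomato NSCs had 3 to 7 higher and 1 to 2 lower, traced minus hippocampal NSCs 4 to 5 and 3 to 5, and traced astrocytes 23 to 28 lower than hippocampal ones.

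The replicate numbers were not treated as pairs. Deviations of same-numbered libraries correlated at -0.076 to 0.034 between fates of a line (9 pairs) and 0.012 to 0.313 between lines of a fate (18 pairs, 9 over 0.1), and 3 of 18 libraries correlated best with their own number in the other fate of their line. With the number as a block, 25, 25 and 31 members rose and 23 had a lower traced change, and the EYFP minus tdTomato change of Rfx2 passed (-0.41, limma adjusted p = 0.0168). Fitting only the compared groups gave no separate value for the traced minus hippocampal change, which uses all 6. Of the calls of the named members under the other settings, 1008 were the same, 13 were lost and 6 gained. Beside the losses given above for Dnah1, Zmynd10 and Ccdc40, quantile normalization lost those of Ccdc153 and Tekt2 in the tdTomato line (0.43 and 0.42, limma adjusted p of 0.158 and 0.0873) and of Dnah1 and Rsph4a in the EYFP line (limma adjusted p of 0.0941 and 0.145). The causes were not tested. Weak members may be limited by a pull of low values to their mean, which was not measured.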

Other observations

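Other lineage markers were measured in the same fit. Of 8 oligodendrocyte lineage genes 6 were tested, and 4, 5 and 4 fell in the tdTomato, EYFP and hippocampal lines. The lineage factor Olig2 fell in the hippocampal line by 2.37 ± 0.09 (limma adjusted p = 5.59e-14) and the late myelin gene Mog stayed between -1.44 and -1.04 in every library. Of 7 neuron and neuroblast genes 3 were tested, and 1, 2 and 2 rose and 1, 1 and 1 fell. The share of all tested genes that rose was 39.9%, 38.2% and 39%, and that fell 38.5%, 37% and 37.3%. Of 6 neural stem and cycling genes 3, 3 and 2 rose and 3, 3 and 2 fell. Nestin (Nes) fell from 14.15, 14.27 and 14.39 to 11.08, 11.19 and 11.01 in the tdTomato line and stood at 13.99, 13.76 and 13.84 in hippocampal NSCs and 13.80, 13.43 and 13.70 in hippocampal astrocytes.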
